A study of Mus musculus with 35 samples.

Results

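Collagens are the main structural proteins of the extracellular matrix that fibroblasts secrete. The chains described here were all genes whose annotated symbol reads Col, a number, a, and a number, which gave 42 of the 18194 genes on the arrays. They comprised 11 fibrillar chains, 6 chains of type IV, the collagen of basement membranes, and 25 chains of other types. Primary mouse embryonic fibroblasts (MEFs) of the C57BL6/J strain were exposed to methyl methanesulfonate (MMS), an alkylating agent that transfers methyl groups to DNA and proteins, and their RNA was hybridised to Affymetrix arrays. By the sample labels the cells came from embryos of day 15.5 and had been expanded for 2 passages, whereas the study's methods give another embryo day and passage number. They were plated a day before the medium was replaced by fresh medium with or without MMS, and whether the 0 h cells had received it is not stated. Control cells had medium without MMS and were harvested at 0, 1, 8, 24 and 72 h, with 4 arrays per time. Cells with 40 µg/mL MMS were harvested at 1, 8, 24 and 72 h, with 4 arrays per time and 3 at 72 h, where replicate 4 was not analysed here. Primary MEFs are a mixed culture of mesenchymal cells and not a clone, and the replicates are described as biological without saying whether they came from separate embryos, so p-values here rest on the variation among these samples, part of which may be technical.

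Collagen molecules are triple helices wound from such chains, which can be alike or different. Fibrillar collagens (types I, II, III, V, XI, XXIV and XXVII) form the banded fibrils that bear tension, with type I as the chief fibre of skin, tendon and bone, type III beside it in stretchy tissues, and types V and XI inside fibrils, where they set the diameter. Type IV forms the sheet-like network of basement membranes. Type VI makes beaded filaments around cells, types VIII and X make networks of short chains, and the FACIT collagens, among them types XII, XIV and XVI, decorate the surface of fibrils. Chains are hydroxylated and glycosylated in the endoplasmic reticulum, fold with the help of dedicated chaperones, leave in large transport carriers and lose their propeptides outside the cell.

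Each value is a log2 signal of 1 array, so a difference of 1 is a 2-fold change. Tests were run on genes with a group mean, in any group, of at least log2 4.40, the 40th percentile over the whole table. Of the 42 chains, 33 were tested (10 fibrillar, 4 of type IV and 19 others), and 25 of these reached that limit in every group. Col4a3, Col4a4, Col6a5, Col9a2, Col13a1, Col17a1, Col23a1, Col24a1 and Col26a1 lay below it throughout, with group means between 2.96 and 4.33, so their differences are not described. A call is an adjusted p under 0.05 in limma over the 14135 genes tested.

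The cells carried fibroblast transcripts. All 12 fibroblast markers listed (Vim and Thy1 among them) reached the limit in control cells at every time, and the mean of the list was 10.12 to 10.22 on the 4 control arrays at 24 h. Intestinal markers, 18 genes, averaged 10.98 in control 0 h replicate 3, 9.08 in MMS 24 h replicate 3, 7.09 in MMS 1 h replicate 3 and 6.01 in MMS 72 h replicate 3, against at most 5.63 on the other arrays. The 8 h arrays of both treatments formed a set of their own along the first principal component (44.5% of the variance), and the mean of 18 macrophage markers was 7.74 to 7.90 in control and 7.20 to 7.42 in MMS-treated cells at 8 h. Counts without these arrays stand beside the results they touch.

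The sequences before the annotated start are shown for 5 of the chains described below, and no motif was tested against expression. Col4a1 and Col4a2, which encode the chains of the common type IV molecule, are read in opposite directions from starts 21 bases apart. Col1a2 and Col3a1 are fibrillar chains that fell, and Col10a1 is the chain that rose most, chosen after its values were seen. Each run gives the 250 bases before the start in RefSeq (GRCm38.p6), 5′ to 3′ on the gene's own strand. Capitals mark CCAAT, the letters of the box bound by the factor NF-Y, GGGCGG, the letters of a GC box, and TATAAA, each on either strand. The table used holds no entry for Col1a1.
Col4a1: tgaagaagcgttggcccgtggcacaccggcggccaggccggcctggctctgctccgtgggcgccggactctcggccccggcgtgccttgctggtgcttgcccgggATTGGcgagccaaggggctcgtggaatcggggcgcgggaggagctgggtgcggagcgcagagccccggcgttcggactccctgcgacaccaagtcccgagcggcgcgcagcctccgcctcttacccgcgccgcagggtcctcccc
Col4a2: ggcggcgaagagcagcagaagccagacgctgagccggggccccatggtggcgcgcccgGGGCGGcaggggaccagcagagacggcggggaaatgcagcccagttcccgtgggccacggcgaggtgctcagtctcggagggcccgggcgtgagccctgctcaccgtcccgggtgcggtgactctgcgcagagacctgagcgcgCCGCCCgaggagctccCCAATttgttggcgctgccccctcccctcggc
Col1a2: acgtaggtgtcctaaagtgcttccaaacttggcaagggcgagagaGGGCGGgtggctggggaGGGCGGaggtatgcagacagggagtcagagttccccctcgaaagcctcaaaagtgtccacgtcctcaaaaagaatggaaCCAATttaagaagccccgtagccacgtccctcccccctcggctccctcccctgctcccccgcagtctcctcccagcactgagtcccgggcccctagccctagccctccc
Col3a1: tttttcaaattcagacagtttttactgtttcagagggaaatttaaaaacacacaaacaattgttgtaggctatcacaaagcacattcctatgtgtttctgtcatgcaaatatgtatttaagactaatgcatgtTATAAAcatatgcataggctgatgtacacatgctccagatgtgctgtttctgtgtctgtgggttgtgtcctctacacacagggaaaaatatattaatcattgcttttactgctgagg
Col10a1: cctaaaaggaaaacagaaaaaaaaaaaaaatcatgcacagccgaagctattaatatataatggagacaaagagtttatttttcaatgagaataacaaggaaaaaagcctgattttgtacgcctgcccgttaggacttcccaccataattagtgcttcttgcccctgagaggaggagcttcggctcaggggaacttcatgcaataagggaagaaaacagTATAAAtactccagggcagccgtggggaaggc

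The window of Col4a1 is chr8:11312827-11313076 on the minus strand and that of Col4a2 chr8:11312555-11312804 on the plus strand. The others are on the plus strand, Col1a2 at chr6:4505368-4505617, Col3a1 at chr1:45311288-45311537 and Col10a1 at chr10:34389731-34389980. CCAAT begins 145 bases before the start of Col4a1, 32 before that of Col4a2 and 109 before that of Col1a2, and is not in the windows of Col3a1 and Col10a1. GGGCGG occurs at 192 and 48 bases before the start of Col4a2 and at 205 and 188 bases before that of Col1a2. TATAAA stands 117 bases before the start of Col3a1 and 32 bases before that of Col10a1. Of 32851 such windows of all genes, 33.8% hold CCAAT, 32.7% GGGCGG and 12.4% TATAAA, and of the 36 windows of 33 collagen genes these were found in 13, 21 and 5. TGANTCA, the letters of an AP-1 site, lies in 6.75% of all windows and in 1 of the 36. A match describes the letters only.

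MMS lowered the transcripts of most collagen chains in MEFs at 8 and 24 h, with the larger median difference at 24 h. By 72 h fewer chains were still below control. Because the 8 h arrays formed a set apart, time and culture cannot be told apart between 8 and 24 h. At 24 h, 21 of the 33 chains were lower and 3 higher, against 19.4% and 25% of all genes tested, and 15 were at least 2-fold lower, against 2.97% of all genes. The median difference between MMS and control was -0.94 on the log2 scale for the chains and 0.01 for all genes. At 8 h, 19 chains were lower and 1 higher (25% and 28.7% of all genes), with a median of -0.34, against 0.06 for all genes. At 72 h, 11 were lower and 3 higher (10.4% and 10.1%), with a median of -0.15, against -0.01. Of the 25 chains at the limit in every group, 17 were lower and 3 higher at 24 h. At 1 h limma called 0 chains in either direction (0.389% of all genes, 0.361% higher and 0.0283% lower), and 2, both higher, had an unadjusted p under 0.05. In total RNA of a culture, fewer cells of a type and less RNA per cell cannot be told apart. Without the 4 arrays with intestinal transcripts, 21 were lower and 3 higher at 24 h, 17 of them at least 2-fold lower, and the 20, 24 and 14 chains called at 8, 24 and 72 h were all called again. Without the 8 h arrays, 22 chains were lower and 3 higher at 24 h, and 10 were lower and 4 higher at 72 h.

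**Figure D1:**
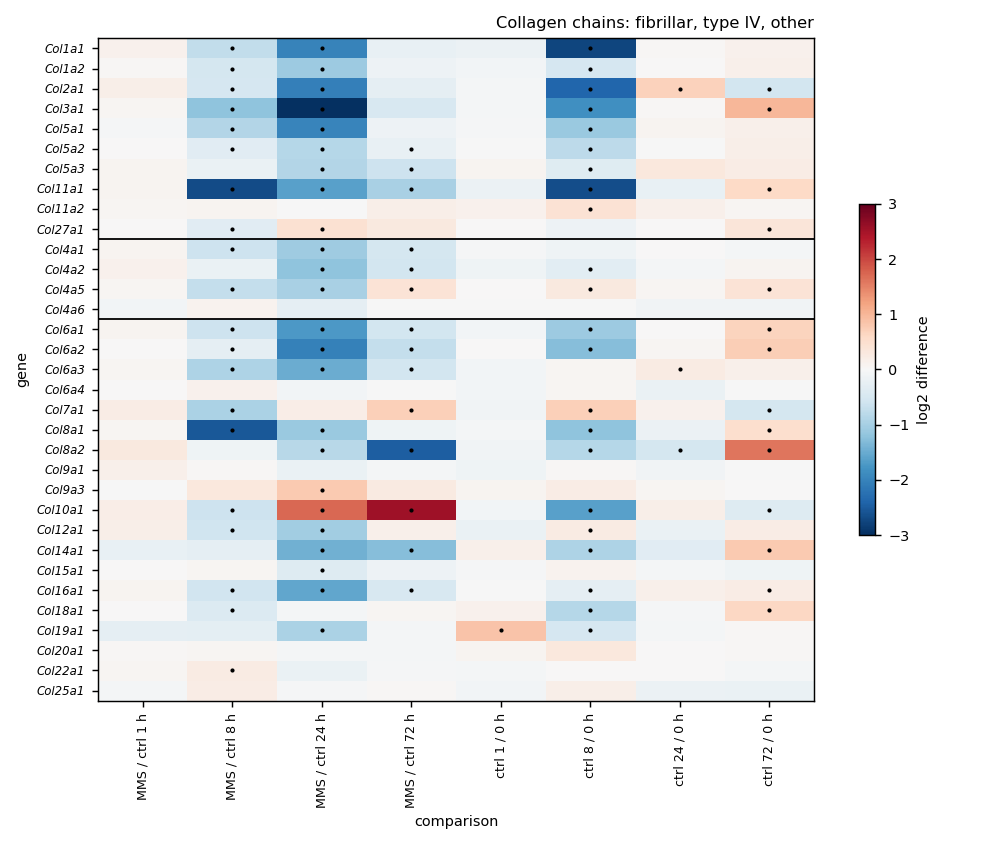
Log2 difference (colour) of each of the 33 collagen chains tested (rows, in the blocks fibrillar, type IV and other), for MMS against control at 1, 8, 24 and 72 h and for control cells of the later times against those of 0 h (columns), with a dot where the adjusted p is under 0.05. The column of MMS against control at 24 h holds 21 chains that were lower, down to -3.09 for Col3a1, which lies past the end of the colour scale at -3, and Col10a1 stands out as higher at 24 and 72 h.

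Most markers of fibroblasts were also lower after MMS at 8 and 24 h. At 24 h, 11 of the 12 were lower and 1 higher (19.4% and 25% of all genes), and their mean was 9.47 to 9.56 on the MMS arrays. At 8 h 9 were lower (25% of all genes) and at 72 h 6 (10.4%), with 0 higher at either time (28.7% and 10.1%). Macrophage markers were lower in 10 and higher in 1 of the 16 tested at 8 h (25% and 28.7% of all genes). At 24 h 3 were higher (Csf1r, Cd68 and Cd14, named after their values were seen) and 0 lower, against 25% and 19.4% of all genes. The mean of the list at 24 h was 4.69 to 5.02 after MMS and 4.38 to 4.46 in control cells. Among 17 intestinal markers limma called 0 at any time between MMS and control, with a median difference of 0.89 at 24 h. At 24 h, 1 of 7 epithelial markers was higher and 2 lower, and of 3 endothelial and 5 muscle markers 1 and 2 were lower. Among all genes 25% were higher and 19.4% lower. Whether the makeup of the cultures had a part in the collagen values was not tested.

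Fibrillar chains fell together. At 24 h, 8 of the 10 tested were lower, 6 of them at least 2-fold, 1 was higher and 1 was not past the threshold. Among all genes 19.4% were lower, 2.97% at least 2-fold, and 25% higher. The median difference of the fibrillar chains was -1.36. At 8 h 8 were lower and 0 higher (25% and 28.7% of all genes), with a median of -0.52. At 72 h 3 were lower and 0 higher (10.4% and 10.1%), with a median of -0.22. That count at 72 h depended on the setting. With array weights Col1a1, Col1a2, Col2a1, Col3a1 and Col5a1 were also called lower and Col27a1 higher. With the mean of all probe sets Col1a2, Col3a1 and Col5a1 were also lower and Col27a1 higher. Without the arrays with intestinal transcripts the counts at 24 h were the same and the median was -1.51.

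Col3a1, the chain of type III, fell most. Its log2 signals at 24 h were 13.32, 13.27, 13.20 and 13.15 on the control arrays and 9.69, 9.66, 11.33 and 9.90 on the MMS arrays. The groups lay far apart, and the high MMS value was that of replicate 3, the array with intestinal transcripts. The difference was -3.09 (SE 0.19, adjusted p = 2.7e-14, limma), and -3.49 without the arrays with such transcripts. At 8 h the MMS arrays read 10.27, 10.07, 10.24 and 10.05 and the control arrays 11.36, 11.26, 11.39 and 11.46, a difference of -1.21 (SE 0.19, adjusted p = 2.6e-06). At 72 h MMS arrays of 13.83, 13.73 and 13.62 stood under control arrays of 14.29, 14.12, 14.20 and 14.17. That difference of -0.47 was not past the threshold (adjusted p = 0.11, 95% interval -0.89 to -0.05), but it was without the arrays with intestinal transcripts (-0.42, adjusted p = 0.0002) and for the other probe set of the gene (-1.30). The other probe set gave -2.37 at 8 h and -4.30 at 24 h.

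Both chains of type I, which combine in the same molecule, fell at 8 and 24 h. Col1a1 read 14.13, 13.88, 13.77 and 13.87 on the control arrays at 24 h and 11.87, 11.87, 12.22 and 11.69 after MMS. All MMS values were below all control values, and the difference was -2.00 (SE 0.10, adjusted p = 1.4e-16). At 8 h the control arrays themselves had dropped to 11.03, 11.28, 11.03 and 11.23, and the MMS arrays lay lower still at 10.62, 10.19, 10.45 and 10.41 (difference -0.73, SE 0.10, adjusted p = 1.8e-07). Col1a2 read 14.43, 14.34, 14.37 and 14.34 in control cells at 24 h and 13.02, 13.11, 13.75 and 13.21 after MMS, again with replicate 3 as the highest of the MMS arrays. Its difference was -0.52 at 8 h and -1.10 at 24 h (SE 0.08 each, adjusted p = 4.8e-06 and 4.5e-12). The signal of the probe set used for Col1a2 lay close to the highest value in the table, 14.62, and the other probe sets of the gene gave larger differences, -1.46 and -2.88 at 8 h and -2.72 and -1.43 at 24 h. At 72 h neither chain was past the threshold by the probe set used, with 95% intervals of -0.43 to -0.01 for Col1a1 and -0.35 to 0.03 for Col1a2. With array weights both were (adjusted p = 0.00067 and 0.0072), and another probe set of Col1a2 was called lower at 72 h (-0.50, adjusted p = 0.0038).

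**Figure D2:**
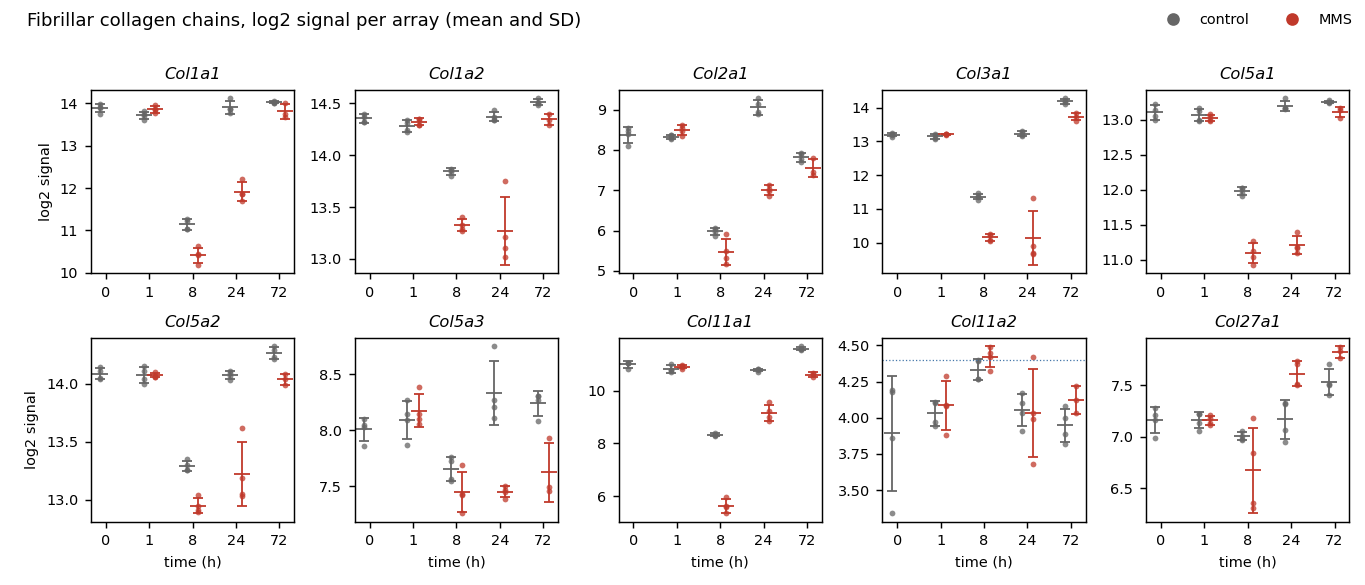
Log2 signal (y axis, its range set per panel) of the 10 fibrillar chains tested against time in h (x axis, equally spaced), with 1 point per array, control in grey and MMS in red, bars for the mean and SD, and a dotted line at the limit of 4.40 where it falls in the panel. Col1a1, Col2a1, Col3a1, Col5a1 and Col11a1 are lower in control cells at 8 h than at 0 h and lower again after MMS, and the MMS arrays at 72 h lie nearer to control than those at 24 h.

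Types V and XI share the role of fibril nucleators. Col5a1 read 13.31, 13.15, 13.16 and 13.16 in control cells at 24 h and 11.10, 11.18, 11.40 and 11.17 after MMS, a difference of -1.98 (SE 0.07, adjusted p = 1.3e-19) after -0.89 at 8 h. Its partner Col5a2 differed by -0.34 at 8 h, -0.85 at 24 h and -0.23 at 72 h (adjusted p = 0.00028, 8.8e-11 and 0.044). Another probe set of Col5a2 gave -2.33, -1.34 and -0.55, all called, and the other Col5a1 probe sets gave -1.41 and -1.79 at 8 h, so which partner fell more at 8 h depended on the probe set. By the probe set used, the call of Col5a2 at 72 h rested on each single array, since leaving out any 1 of the 7 arrays of that time ended it. Col5a3 was not past the threshold at 8 h (-0.20, adjusted p = 0.15) and was lower at 24 h (-0.88) and at 72 h (-0.62, adjusted p = 0.00044). By the probe sets used, Col11a1 was the fibrillar chain with the largest difference at 8 h, when its arrays read 8.30, 8.40, 8.29 and 8.30 in control cells and 5.58, 5.98, 5.63 and 5.35 after MMS. The groups were separate at every time from 8 h on, and the difference was -2.68 at 8 h, -1.62 at 24 h and -0.98 at 72 h (SE 0.11, 0.11 and 0.12, adjusted p at most 1.6e-07). At 72 h Col5a1 was not past the threshold by the probe set used (-0.15) but lower by the other probe sets (-0.60 and -0.48).

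The remaining fibrillar chains differed in course. Col2a1, the chain of cartilage fibrils, read 9.29, 8.93, 8.88 and 9.13 in control cells at 24 h and 6.87, 7.14, 7.04 and 6.98 after MMS (difference -2.05, SE 0.12, adjusted p = 8.7e-15). Of 10 chondrocyte markers 5 reached the limit in control cells at 24 h. Means were 6.34 for Sox9, 5.77 for Matn3, 5.10 for Sox6, 4.52 for the aggrecan gene Acan and 3.08 for Matn1. Of the 7 tested, 1 was higher and 1 lower after MMS at that time, against 25% and 19.4% of all genes. Col27a1 was lower at 8 h (-0.33, adjusted p = 0.020) and higher at 24 h (0.45, adjusted p = 0.0030). Its MMS arrays at 8 h were 6.36, 6.84, 7.18 and 6.31, a spread that overlapped the control arrays, and the call ended without replicate 1 (-0.23) or replicate 4 (-0.21) of MMS. A second probe set of Col27a1 gave 0.07 at 24 h. Col11a2 stood at the limit or below it, with group means of 3.89 to 4.42, and was not past the threshold between MMS and control at any time. Col24a1 lay below the limit.

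Most type IV chains tested fell at 24 h. Of the 4 tested, 3 were lower at 24 h, 2 of them at least 2-fold, and 0 were higher. Among all genes 19.4% were lower, 2.97% at least 2-fold, and 25% higher. At 8 h 2 were lower (25% of all genes), and at 72 h 2 were lower and 1 higher (10.4% and 10.1%). Col4a1 read 12.90, 12.67, 12.67 and 12.68 in control cells at 24 h and 11.61, 11.63, 11.82 and 11.63 after MMS. Col4a2, whose start faces that of Col4a1 in the sequences above, read 12.22, 11.91, 11.90 and 11.98 in control cells and 10.73, 10.76, 10.85 and 10.85 after MMS. Neither gene's groups overlapped, and the differences were -1.06 and -1.20 (SE 0.08 and 0.09, adjusted p = 2.6e-12 and 4.7e-12). A second probe set of Col4a1 gave -0.71 at 24 h. At 72 h the differences of the probe sets used were -0.52 and -0.56 (adjusted p = 2.4e-05 and 8.3e-05). At 8 h Col4a1 was lower by -0.62 (adjusted p = 8.2e-08), while Col4a2 was at -0.20 (adjusted p = 0.071) and a second probe set of Col4a1 at -0.21 (adjusted p = 0.039). Col4a2 was past the threshold with array weights, with a replicate block, with only the groups compared and without MMS replicate 1 (-0.25). The difference between these neighbours was not tested.

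Col4a5, a chain of the kidney type of basement membrane, moved in both directions. It was lower at 8 h (-0.71, adjusted p = 2.5e-06) and 24 h (-0.97, adjusted p = 1.9e-08), and at 72 h its MMS arrays of 10.50, 10.65 and 10.44 stood over 3 control arrays of 9.96, 10.01 and 9.94 but overlapped the other, 10.56. The difference at 72 h was 0.41 (adjusted p = 0.014), a call that ended without control replicate 2 (0.36) or 4 (0.35) or without MMS replicate 2 (0.35). A second probe set gave -0.76 at 24 h and 0.18 at 72 h. By the probe set used, the change of the MMS effect from 24 to 72 h was 1.37. Col4a6 had group means of 4.38 to 4.85 and no call against control of the same time, and Col4a3 and Col4a4 lay below the limit.

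**Figure D3:**
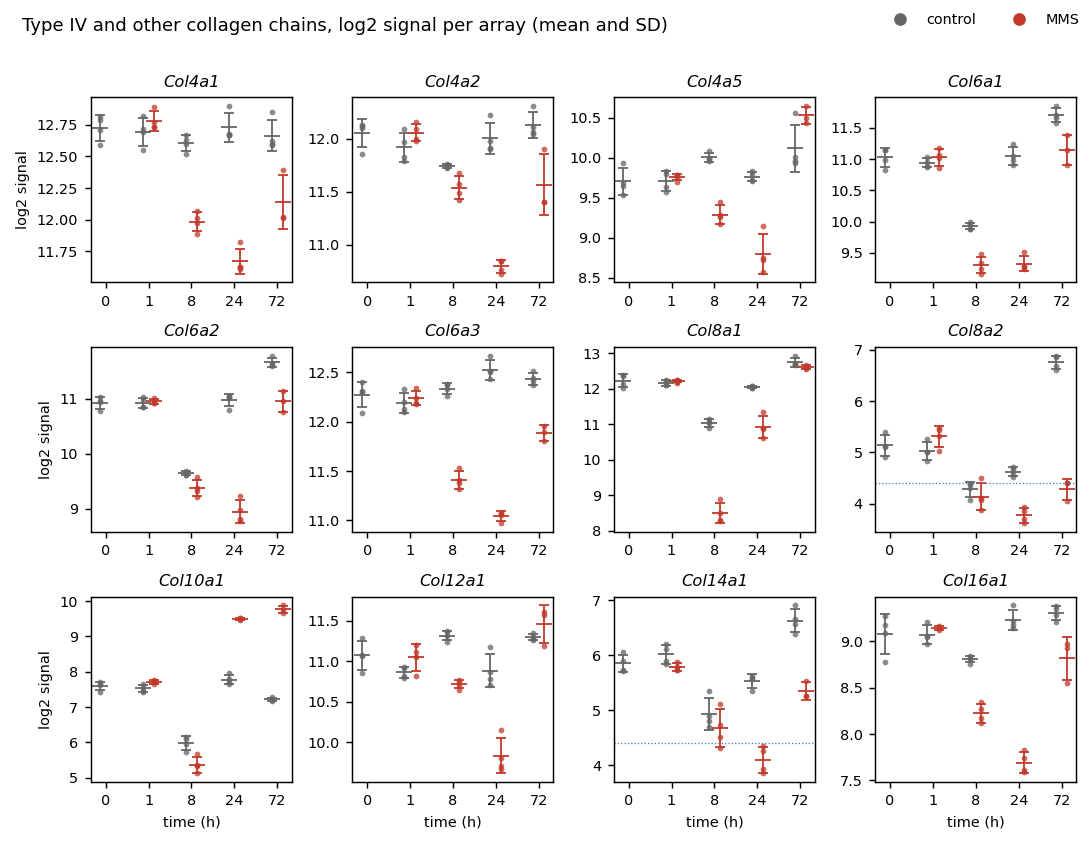
Log2 signal (y axis, its range set per panel) of 3 type IV chains and the 9 other chains with a called difference of at least 2-fold, against time in h (x axis, equally spaced), with 1 point per array, control in grey and MMS in red, bars for the mean and SD, and a dotted line at the limit of 4.40 where it falls in the panel. At 24 h the MMS arrays of Col10a1 (9.46 to 9.53) lie above control, and those of the other 11 chains lie below control.

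Chains of type VI, the beaded filament around cells, fell. Its 3 main chains were each lower at 8, 24 and 72 h, the call of Col6a2 at 8 h (-0.27) ending without MMS replicate 2 (-0.22). Col6a1 read 11.24, 11.05, 10.90 and 10.99 in control cells at 24 h and 9.28, 9.29, 9.51 and 9.24 after MMS, Col6a2 11.04, 11.02, 10.80 and 11.01 against 8.97, 8.77, 9.24 and 8.81, and Col6a3 12.67, 12.51, 12.43 and 12.50 against 11.06, 10.97, 11.08 and 11.08. No MMS array reached a control array in any of them. The differences at 24 h were -1.72, -2.02 and -1.48 (SE 0.09, 0.09 and 0.06, adjusted p at most 2.6e-15). At 72 h they were -0.55, -0.71 and -0.55 (adjusted p at most 0.00013). Control cells at 72 h had more Col6a1 and Col6a2 than at 0 h (0.67 and 0.73), and against control at 0 h MMS-treated cells at 72 h stood at 0.12 and 0.03, not past the threshold. The fourth chain tested, Col6a4, was not called between MMS and control.

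Chains of the short network collagens took different courses. Col8a1, found in vessel walls and the cornea, fell from control values of 10.89, 11.15, 11.02 and 11.06 to 8.31, 8.90, 8.28 and 8.50 at 8 h. The difference was -2.54 at 8 h (SE 0.12, adjusted p = 1.6e-17), -1.12 at 24 h (adjusted p = 2.2e-09) and -0.13 at 72 h (95% interval -0.39 to 0.12). The 2 other probe sets of Col8a1 gave larger values at 24 h than at 8 h, -1.71 then -1.84 and -1.04 then -1.60. Its partner Col8a2 differed most at 72 h. At 72 h Col8a2 read 6.87, 6.68, 6.60 and 6.86 in control cells and 4.41, 4.05 and 4.40 after MMS, a difference of -2.47 (SE 0.13, adjusted p = 3.7e-14) after -0.84 at 24 h. Control cells had risen from a mean of 5.14 at 0 h to 6.75 at 72 h (difference 1.61, adjusted p = 1.4e-11). The MMS arrays at 72 h stood at or below about the limit of 4.40, where differences in level are poorly resolved.

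Col10a1 fell at 8 h and rose at 24 and 72 h, with the largest rise of the chains tested at both. It is the chain of type X, known from hypertrophic cartilage. Its arrays at 24 h read 7.95, 7.72, 7.64 and 7.78 in control cells and 9.53, 9.52, 9.49 and 9.46 after MMS, and at 72 h 7.28, 7.23, 7.20 and 7.17 against 9.88, 9.67 and 9.74. Every MMS array lay above every control array at both times. The differences were 1.73 at 24 h (3.31-fold, SE 0.09, adjusted p = 1.1e-15) and 2.54 at 72 h (5.83-fold, SE 0.10, adjusted p = 2.1e-17). At 8 h it was lower after MMS, 5.32, 5.68, 5.36 and 5.13 against 6.10, 5.72, 5.95 and 6.14 (difference -0.61, adjusted p = 1.4e-06), and control cells at 8 h were below those at 0 h by -1.62. Against control cells at 0 h it was higher by 1.90 at 24 h and 2.16 at 72 h. Markers of osteoblasts that could be tested, 2 of 8 listed, were not called at 24 or 72 h. The window before its start, shown above, holds TATAAA 32 bases from the start, as 12.4% of windows hold it anywhere.

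Of 8 FACIT chains of the fibril surface tested, 4 were lower and 1 higher at 24 h (19.4% and 25% of all genes). At 8 h 2 were lower and 1 higher, or 25% and 12.5% against 25% and 28.7% of all genes. The lower share at 8 h was thus that of all genes. At 72 h 2 were lower and 0 higher (10.4% and 10.1% of all genes). Col16a1 was lower at 8 h (-0.58), 24 h (-1.55) and 72 h (-0.49, adjusted p = 0.00023), and its arrays at 24 h read 9.39, 9.18, 9.15 and 9.22 in control cells and 7.83, 7.74, 7.59 and 7.61 after MMS. Col12a1 was lower at 8 h (-0.60, adjusted p = 1.6e-05) and 24 h (-1.05, adjusted p = 1.3e-09) and at 72 h stood at 0.16 (95% interval -0.07 to 0.40). Col14a1 was lower at 24 h (-1.43, adjusted p = 1.9e-09) and 72 h (-1.28, adjusted p = 2.8e-07), and its MMS arrays at 24 h, 3.92, 3.86, 4.25 and 4.35, were all below the limit. A second probe set of Col14a1 was called at both times but gave smaller differences, -0.49 and -0.56. The 10 other chains tested that never differed 2-fold ranged from -0.94 (Col19a1) to 0.79 (Col9a3) at 24 h. Among them Col7a1, the anchoring fibril of skin, was lower at 8 h (-0.94, adjusted p = 8.1e-08) and higher at 72 h (0.71, adjusted p = 0.00012), and Col18a1, the source of endostatin, was lower at 8 h (-0.42, adjusted p = 0.0011). A second probe set of Col18a1 was not called at 8 h (-0.24) and was higher at 24 h (0.39, adjusted p = 0.0040) and 72 h (0.48, adjusted p = 0.0033). Col9a3 was higher at 24 h (adjusted p = 3.7e-05), a call lost with the mean of all probe sets. The other probe sets of Col9a3 did not reach the limit. Col19a1 was lower at 24 h (-0.94) with a mean of 3.51 after MMS, below the limit. Other probe sets of Col19a1 gave -0.09, not called, and -0.47, called, at 24 h. Col15a1 is counted among the lower chains at 24 h (-0.38), but it reached the limit in 1 group only, MMS at 8 h, and nothing can be read from means of 4.21 and 3.82 at 24 h. Col22a1 was the 1 chain higher at 8 h (0.24, adjusted p = 0.035), with group means near the limit and overlapping arrays.

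The course of the control cells sets what each difference is read against. In control cells at 8 h, 18 of the 33 chains were lower and 4 higher than at 0 h (23.6% and 35.8% of all genes), and 9 were at least 2-fold lower (4.45%). Col1a1 differed by -2.75 (SE 0.10, adjusted p = 6.6e-20), Col11a1 by -2.67 and Col2a1 by -2.39, while Col4a1 (-0.12, adjusted p = 0.19) and Col6a3 (0.06, adjusted p = 0.44) were not past the threshold. All 16 macrophage markers tested were higher in these control cells than at 0 h, with a median of 3.70, and of the 12 fibroblast markers 7 were higher and 2 lower. Y-linked transcripts also stood apart at 8 h. At 8 h the mean of Eif2s3y was 6.69 without MMS and 6.22 with it, while group means at the other times were 4.46 to 4.88, and of 3 sex-linked genes tested 2 were higher in control cells at 8 h than at 0 h. The part of any of these in the differences of the chains was not tested, nor was whether the 8 h cultures came from the same embryos as the others. In control cells at 24 h, 2 chains were higher than at 0 h (Col2a1 and Col6a3) and 1 lower (Col8a2), against 9.12% and 2.06% of all genes, and at 1 h only Col19a1 was called, higher by 0.86 (7.22% and 4.38%). With array weights 8 chains were lower at 24 h and 10 at 1 h. The call of Col6a3 at 24 h ended without the arrays with intestinal transcripts, which include 1 of the 4 control arrays at 0 h. At 72 h 11 chains were higher and 3 lower than at 0 h (21.8% and 16.3%), led by Col8a2 (1.61), Col3a1 (1.00, adjusted p = 9.7e-05) and Col14a1 (0.78), and the 3 lower were Col2a1, Col7a1 and Col10a1.

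The MMS effect differed between the times sampled. Because the 8 h arrays formed a set apart, time and culture cannot be told apart in the change from 8 to 24 h. From 8 to 24 h the MMS effect became lower in 19 of the 33 chains and higher in 6 (22.2% and 23.3% of all genes). From 24 to 72 h it became higher in 19 and lower in 1, Col8a2 (12.4% and 16.5%). For Col3a1 the changes were -1.88 and 2.62, for Col1a1 -1.28 and 1.78, and for Col6a2 -1.75 and 1.31. For Col11a1 and Col8a1 the effect was smaller in size at 24 h than at 8 h (changes of 1.06 and 1.41). Both probe sets of Col11a1 gave this order, but for Col8a1 it held for the probe set used and not for the other probe sets. Against control cells at 0 h, which are not matched in time, 24 chains were lower and 4 higher in MMS-treated cells at 24 h (19.8% and 29.7%), and 9 were lower and 7 higher at 72 h (14.5% and 20.6%). With that reference the difference at 72 h turned positive for Col3a1 (0.53, adjusted p = 0.046) and Col8a1 (0.38, adjusted p = 0.018).

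Genes that process collagen fell at 24 h as well. Of 45 such genes listed, 41 were on the array and 38 were tested, and 28 of these were lower and 3 higher (19.4% and 25% of all genes), with a median of -0.56. At 8 h the counts were 11 lower and 7 higher, or 28.9% and 18.4% of the 38 against 25% and 28.7% of all genes, so the lower share was near that of all genes. At 72 h they were 9 lower and 5 higher, or 23.7% and 13.2% against 10.4% and 10.1%. Without the arrays with intestinal transcripts the counts at 72 h were 6 lower and 6 higher. Without the 8 h arrays they were 7 lower and 6 higher, so the excess of lower genes at 72 h depended on the arrays used. At 1 h limma called 0 in either direction, with 0 at an unadjusted p under 0.05.

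Enzymes that hydroxylate or glycosylate the chains were lower in 12 and higher in 1 of 15 at 24 h (19.4% and 25% of all genes). The prolyl 4-hydroxylase subunit P4ha2 read 10.92, 10.85, 10.75 and 10.70 in control cells and 9.26, 9.14, 9.58 and 9.24 after MMS, a difference of -1.50 (SE 0.08, adjusted p = 8.5e-16). P4ha1 and the prolyl 3-hydroxylase P3h3 differed by -1.33 and -1.05 at that time. At 8 h P4ha2 and P4ha1 were not past the threshold (-0.01 and 0.03), while another alpha subunit, P4ha3, was lower (-1.02, adjusted p = 3.9e-11) and the beta subunit P4hb was higher (0.41, adjusted p = 1.4e-06), both named after their values were seen. The 1 enzyme higher at 24 h was Plod2 (0.49, adjusted p = 0.00032), a lysyl hydroxylase of the telopeptides, named after its values were seen.

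Genes of folding and secretion were lower in 10 of 11 at 24 h, with 0 higher, against 19.4% and 25% of all genes. Serpinh1, the collagen chaperone HSP47, was higher at 8 h and lower at 24 h: its arrays read 12.93, 12.85, 12.89 and 12.89 in control cells and 13.15, 13.16, 13.22 and 13.22 after MMS at 8 h (difference 0.30, adjusted p = 1.2e-05), and 13.30, 13.18, 13.20 and 13.21 against 12.59, 12.50, 12.67 and 12.41 at 24 h (difference -0.68, adjusted p = 4.0e-12). The groups were separate at both times. The prolyl isomerase Fkbp14 fell by 1.28 at 24 h, and Sec23a and Sec24d, coat proteins of the vesicles that leave the endoplasmic reticulum, differed by -0.97 and -0.78. Creb3l1, a membrane-bound factor that switches on collagen genes in bone, was lower at 24 h (-0.65, SE 0.15, adjusted p = 0.00051) and not past the threshold at 8 h (-0.21) or 72 h (0.02).

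**Figure D4:**
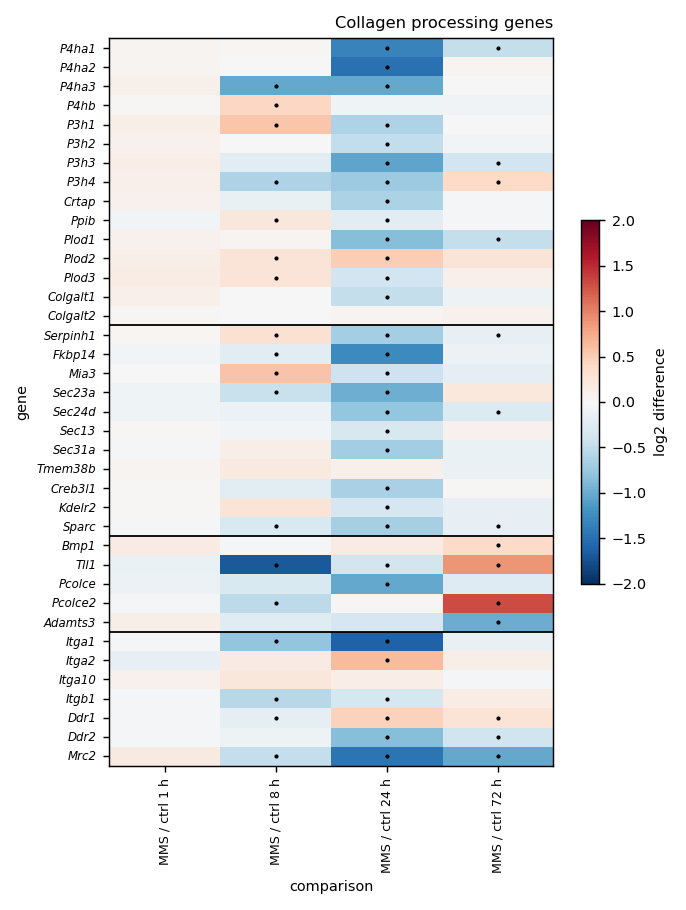
Log2 difference (colour) between MMS and control for the 38 collagen processing genes tested (rows, in blocks for hydroxylation and glycosylation, folding and secretion, propeptide removal, and receptors and uptake) at 1, 8, 24 and 72 h (columns), with a dot where the adjusted p is under 0.05. At 24 h 28 genes are lower, P4ha2 at -1.50 and Itga1 at -1.61 among them, and Plod2, Itga2 and Ddr1 are higher.

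Genes of propeptide removal split. At 24 h 2 of 5 were lower, Pcolce, the enhancer of the C-proteinase (-1.02, SE 0.13, adjusted p = 2.0e-07), and the proteinase Tll1 (-0.37, adjusted p = 0.0016). Among all genes 19.4% were lower at that time. The MMS arrays of Pcolce were 11.47, 11.45, 12.45 and 11.68, with replicate 3 high again, and the difference without the arrays with intestinal transcripts was -1.25. Tll1 had differed more at 8 h, with means of 9.84 in control cells and 8.16 after MMS (-1.68, adjusted p = 1.6e-15). At 72 h 3 of the 5 were higher and 1 lower, against 10.1% and 10.4% of all genes. They were Bmp1 (0.38), Tll1 (0.89), Pcolce2 (1.31, adjusted p = 3.7e-14) and, lower, Adamts3 (-1.00, adjusted p = 9.5e-06), of which Bmp1, Pcolce2 and Adamts3 were named after their values were seen. From 24 to 72 h the control means went from 9.59 to 8.30 for Tll1 and from 9.83 to 8.25 for Pcolce2. The MMS means went from 9.23 to 9.19 and from 9.84 to 9.56. For Bmp1 the control means were 9.76 and 9.86 and the MMS means 9.92 and 10.24. Adamts3 reached the limit in control cells at 72 h alone (mean 4.97, against 3.96 after MMS), so it was tested only through the group where it was high.

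Receptors and uptake genes were lower in 4 and higher in 2 of 7 at 24 h (19.4% and 25% of all genes). The higher share was thus near that of all genes. The integrin subunit Itga1 read 8.03, 8.24, 7.96 and 8.12 in control cells and 6.26, 6.24, 7.04 and 6.37 after MMS (difference -1.61, SE 0.12, adjusted p = 3.0e-12), and -1.80 without the arrays with intestinal transcripts. Mrc2, the endocytic receptor that takes up collagen fragments, differed by -1.46 (adjusted p = 9.9e-13) at 24 h and by -1.03 at 72 h (adjusted p = 3.5e-08). The receptor kinase Ddr2 fell by 0.85 at 24 h, while Ddr1 and the integrin subunit Itga2, named after their values were seen, were higher by 0.46 and 0.64.

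For 23 other probe sets of tested chains that reached the limit, the call and direction were those of the probe set used in 15 cases at 8 h, 16 at 24 h and 5 at 72 h, and neither was called in 4, 4 and 12. No pair was called in opposite directions. At 72 h the other probe set alone was called in 5 cases.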

How the data were processed

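RNA of primary MEFs was measured on 35 Affymetrix arrays. The authors normalized the arrays by RMA (version not given in the sources used here), and the deposited table holds a log2 value per probe set and array, between 2.44 and 14.62. RMA normalizes between arrays, so a change shared by all genes is removed. Array medians were 4.98 to 5.09, and precision is set by how many arrays each group has. Of 45101 probe sets, 34958 with 1 gene symbol were used, and each of 18194 genes was given by its probe set of highest mean. Tests were run on the 14135 genes with a group mean, in any group, at or above log2 4.40, the 40th percentile over the whole table.

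One linear model of all 9 groups was fitted with limma 3.58.1 in R 4.3.3 (26 residual degrees of freedom, empirical Bayes moderation), and two-sided p-values were Benjamini-Hochberg adjusted within each contrast over all genes tested. Tables were made in Python 3.11.15 with pandas 2.3.3. The procedure was tested on simulated data. The members and lists were chosen with earlier results of these data known. Named were every fibrillar and type IV chain, other chains called with at least a 2-fold difference from MMS, the 3 largest called differences at 24 h of each list of processing genes, and Serpinh1 and Creb3l1. Alternatives were other normalizations, filters, probe set rules, variance models, a replicate block, other references and left-out arrays. MMS 72 h replicate 4 was not analysed here.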

Additional observations from a re-analysis of the deposited data

Results flagged for a closer look

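Of 184 groups of 4 arrays of named chains, 14 held 1 array set apart from its group by Dixon's test, where chance gives about 1 group in 20. The test sets the gap against the range of the group, so a small gap counts in a tight group. The third MMS replicate at 24 h, which carries intestinal transcripts, stood high for Col3a1 (11.33, the nearest of its group at 9.90) and for Col4a1 (11.82). Control 0 h replicate 3, with the most intestinal transcripts, stood low for Col4a2 (11.86) and Col11a1 (10.80). Replicate 1 of control stood high at 24 h for Col4a1 (12.90) and Col5a1 (13.31). At 72 h it did so for Col4a1 (12.85), Col4a5 (10.56) and Col8a1 (12.93), and at 1 h for Col4a6 (4.81, nearest 4.74). The others were Col3a1 in MMS 1 h replicate 4 (13.20, nearest 13.22) and Col11a1 in control 8 h replicate 2 (8.40, nearest 8.30). Col6a2 in control 24 h replicate 3 (10.80, nearest 11.01) and Col6a3 in MMS 24 h replicate 2 (10.97, nearest 11.06) complete the list. Their causes were not tested.

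In 20 named chains the MMS effects at 8 and 24 h were unequal, by limma's test of the difference itself. Time and culture cannot be told apart here, because the 8 h arrays formed a set apart. The log2 difference moved down in Col1a1 (-1.28), Col1a2 (-0.58), Col2a1 (-1.54), Col3a1 (-1.88), Col4a1 (-0.44), Col4a2 (-1.00), Col5a1 (-1.09), Col5a2 (-0.51), Col5a3 (-0.68), Col6a1 (-1.09), Col6a2 (-1.75), Col6a3 (-0.56), Col8a2 (-0.70), Col12a1 (-0.45), Col14a1 (-1.17) and Col16a1 (-0.96). It moved up in Col11a1 (1.06), Col27a1 (0.78), Col8a1 (1.41) and Col10a1 (2.33). These changes are those of the probe set used. Other probe sets went the other way from 8 to 24 h for Col1a2 (-2.88 to -1.43), Col5a2 (-2.33 to -1.34) and Col8a1 (-1.71 to -1.84, and -1.04 to -1.60), changes that were not tested. Between 24 and 72 h it differed in 18 named chains. It moved up in Col1a1 (1.78), Col1a2 (0.94), Col2a1 (1.78), Col3a1 (2.62), Col4a1 (0.53), Col4a2 (0.64), Col4a5 (1.37), Col5a1 (1.84), Col5a2 (0.62), Col11a1 (0.64), Col6a1 (1.16), Col6a2 (1.31), Col6a3 (0.94), Col8a1 (0.99), Col10a1 (0.82), Col12a1 (1.21) and Col16a1 (1.06), and down in Col8a2 (-1.62).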

How the results depend on the processing

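The counts of lower chains at 8 and 24 h (19 and 21) and at 72 h (11) stayed within 1.5 times under every alternative run, except that a required 2-fold difference left 3 at 8 h and 2 at 72 h. Of the values of single named chains under the alternatives, 1879 kept direction and side of the threshold, 52 lost and 31 gained a call and 4 changed sign, all 4 at 72 h against control at 0 h: Col3a1 (0.53), Col6a1 (0.12), Col6a2 (0.03) and Col8a1 (0.38). The number higher at 8 h, 1, was 3 after a second quantile normalization and without a filter, 2 with the mean of all probe sets and without the arrays with intestinal transcripts, 5 against control at 0 h, and 0 with the 60th percentile filter, with only the groups compared, with a trended robust variance and with a required 2-fold difference. The number higher at 1 h, 0, was 1 against control at 0 h. At 72 h the number higher, 3, was 5 with array weights, 7 against control at 0 h and 1 at 2-fold, as was the number higher at 24 h (3) at 2-fold.

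For control cells against 0 h, array weights gave 10, 8 and 9 lower chains at 1, 24 and 72 h in place of 0, 1 and 3, and the mean of all probe sets gave 1 lower at 1 h. The 1 chain higher at 1 h was 0 with the 60th percentile filter. The 4 higher at 8 h were 2 with the mean of all probe sets, with only the groups compared and without the arrays with intestinal transcripts, and the 2 higher at 24 h were 1 under the last of these and with only the groups compared. At 2-fold, 0 were higher at 1, 8 and 24 h and 1 at 72 h, and 9, 0 and 0 were lower at 8, 24 and 72 h. For the change of the MMS effect, 2-fold left 8 lower from 8 to 24 h and 9 higher from 24 to 72 h, where the 1 lower was 2 with array weights and without the arrays with intestinal transcripts. Against control at 0 h, 2-fold left 1 higher chain at 24 h, 1 higher chain at 72 h with 0 lower, and array weights gave 15 lower at 72 h. The causes were not tested beyond what a stricter call does by construction.

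Leaving out each array in turn, the chains higher and lower after MMS ranged from 0 to 0 and 0 to 0 at 1 h, 0 to 2 and 18 to 20 at 8 h, 3 to 4 and 21 to 22 at 24 h, and 2 to 3 and 10 to 12 at 72 h. In control cells against 0 h they were 1 to 1 and 0 to 0 at 1 h, 1 to 5 and 17 to 18 at 8 h, 1 to 3 and 1 to 1 at 24 h, and 9 to 13 and 3 to 4 at 72 h. The change of the MMS effect ranged from 5 to 7 and 18 to 20 from 8 to 24 h and from 18 to 19 and 1 to 2 from 24 to 72 h, and MMS against control at 0 h from 3 to 4 and 21 to 25 at 24 h and from 4 to 6 and 6 to 10 at 72 h.

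Arrays of the same replicate number and time deviated together with correlations of -0.26 to 0.31, most of them positive. Correlations this weak cannot decide whether the numbers pair the samples. With the replicate number as a block, the 20 and 24 chains called at 8 and 24 h were called again, 20 were lower at 8 h and 10 at 72 h, 13 of the 14 at 72 h were called again without Col5a2 (-0.23), and in control cells at 8 h Col12a1 was lost. Centring the arrays on their medians moved the median of all genes at 8 h to 0.10, from 0.06. Chains near log2 4.40 lie close to background, which limits what can be read from them.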
